A study of Mus musculus with 6 samples.

Results

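Phf6 and 9 genes of the nucleosome remodeling and deacetylase (NuRD) complex were described in bone marrow (BM) cells of mice with T-ALL, acute lymphoblastic leukemia of T cells. The genes Phf6, Chd3, Chd4, Hdac1, Hdac2, Rbbp4, Rbbp7, Mta1, Mta2 and Mbd3 were taken by symbol from the deposited expression table, and each symbol matched 1 gene, so the set is 10 of 54532 genes. The study asked what loss of Phf6 does to cells that carry JAK3 M511I, a Janus kinase made active by its mutation, and its RNA sequencing gave 3 libraries labelled Phf6 wild type (WT) and 3 labelled Phf6 knockout (KO).

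All 6 libraries came from C57BL/6 mice with BM taken on post-transplantation day 100. In the study's methods, lineage-negative BM cells of male donors received JAK3 M511I together with green fluorescent protein (GFP) from a retrovirus, and GFP+ cells were injected into lethally irradiated male mice. Donors of the KO group were Vav1-Cre;Phf6 fl/y, in which the Vav1 promoter drives the Cre recombinase in blood-forming cells, and donors of the WT group were Phf6 fl/y with no Cre, so the presence of Cre and the loss of Phf6 cannot be told apart. Retroviral JAK3 M511I was shared by both groups, and the BM of a recipient can still hold cells of the host. In the study, GFP+ cells made up a larger part of the BM in KO than in WT mice, at a later time point. In unsorted BM the share of GFP+ cells could therefore differ between the groups. The part of such a difference in the values below was not tested. The labels do not say whether GFP+ cells were sorted before RNA was taken, nor whether the 3 libraries of a group came from separate mice, and the p-values below then measure the spread between these libraries, which may be technical. In the genotype labels the digit of the symbol increases along the samples of a group, and the symbol was read as Phf6 throughout. Libraries are numbered 1 to 3 within each label, as in WT 2 or KO 3.

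NuRD joins ATP-driven movement of nucleosomes to the removal of acetyl groups from histones. Several of its positions are filled by paralogs: the ATPases Chd3, Chd4 and Chd5, the deacetylases Hdac1 and Hdac2, the histone chaperones Rbbp4 and Rbbp7, the Mta scaffold proteins and the methyl-CpG-binding domain proteins Mbd2 and Mbd3, with the Gatad2 proteins as the link between the ATPase and the rest. Phf6 is a nuclear protein with PHD-like zinc fingers that binds NuRD, in part through Rbbp4, and PHF6 is recurrently mutated in human T-ALL, while in lymphoid cells NuRD is known for its association with Ikaros family factors.

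Levels are given as FPKM, fragments per gene divided by gene length and by the size of the library as the authors scaled it. Between 13015823 and 18235095 fragments per library, called reads below, were recovered from the table. WT 2 stood apart from the other libraries. Across the genes tested its correlation was 0.746 and 0.779 with the other WT-labelled libraries, which gave 0.948 with each other. It had 17.1% of its reads in genes under 1000 bases, where the others had 3.11% to 5.01%. Summed FPKM of 9 erythroid markers was 68106 in WT 2 and 16.9 to 531 elsewhere, and that of 10 B cell markers was 1110 in WT 2 and 2.20 to 21.3 elsewhere. The test of each NuRD gene, the ratios of paralogs and the counts of genes are therefore also given without WT 2. T cell markers were present in every library, with Cd3e, a chain of the T cell receptor complex, at 22.6 to 60.0 FPKM, and of 12 such markers 1 was higher and 2 were lower by the test used below (4 and 4 without WT 2). The 12 summed to 2043 FPKM in WT 2 and 926 to 1118 elsewhere. Neutrophil markers (13 of 13 lower, with and without WT 2) summed to 6928 to 95626 FPKM in the WT-labelled and 94.4 to 293 in the KO-labelled libraries, with none of them at 0 in all KO-labelled libraries. Of 6 monocyte and macrophage markers tested 5 were lower, also without WT 2, and the 9 on the list summed to 319 to 4720 against 7.71 to 22.1. Of 6 NK cell markers tested 5 were lower and 1 was higher, also without WT 2. Their summed FPKM over the 7 on the list went the other way, at 204 to 328 in the WT-labelled and 567 to 617 in the KO-labelled libraries. Of 5 B cell markers 1 was lower, and without WT 2 the count was 1 higher and 4 lower. Of 8 erythroid markers none passed the test, and without WT 2 the count was 1 higher and 3 lower. The part of these cell types in the values below was not tested. In bulk RNA, fewer cells of a type and less RNA per cell cannot be told apart.

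Phf6 (ENSMUSG00000025626), the targeted gene, lies on chromosome X, 52912266 to 52956943, plus strand, in build GRCm38. The conditional allele removes exons 4 and 5, read here in the numbering of the transcript Phf6-201, which span chrX:52931573-52932024. They are shown because they are the part of the RNA that the allele is built to remove. In the sequence below, taken from the reference transcripts, both exons are in capitals and 20 bases of the exon before and of the exon after are in lower case.

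Phf6 exons 4 and 5: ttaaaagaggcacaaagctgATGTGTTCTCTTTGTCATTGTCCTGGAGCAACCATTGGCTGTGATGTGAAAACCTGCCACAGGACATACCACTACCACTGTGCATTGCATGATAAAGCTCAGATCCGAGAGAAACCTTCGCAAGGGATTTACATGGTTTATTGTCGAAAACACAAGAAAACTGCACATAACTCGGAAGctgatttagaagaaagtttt

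Both exons are coding throughout and hold 178 bases, a length that leaves a remainder of 1 when divided by 3. They make up 16.3% of the 1092 coding bases and 2.56% of the 6946 bases over which the authors counted the gene. The loss of these bases alone can hardly register in a value per gene, which does not check the genotype labels. This share says nothing about the level of the rest of the transcript. In the study, Phf6 mRNA and protein were also measured in leukemia cells of the Vav1-Cre model and its WT controls.

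Phf6 read 7.47 FPKM in WT 1, 3.67 in WT 2 and 8.02 in WT 3, against 6.73 in KO 1, 5.50 in KO 2 and 5.11 in KO 3. The lowest value was that of WT 2, below all KO-labelled libraries, and the groups overlapped. The group means of 6.39 ± 2.37 (SD, n = 3) in WT and 5.78 ± 0.849 (SD, n = 3) in KO gave a log2 fold change of -0.073 on the log2(FPKM + 1) scale (standard error, SE, 0.33, limma, adjusted p = 0.893). Without WT 2 the groups did not overlap and the log2 fold change was -0.37 (limma, adjusted p = 0.0992, over all alternatives 0.0502 to 0.999). Its sign turned without WT 1 (0.055), without WT 3 (0.10), on rescaling to TPM (0.69) and in voom on reads (0.34). Relative to the median of all genes tested, Phf6 lay between -0.41 and 0.0043 over the 18 alternatives.

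The pattern of Phf6 over the 6 libraries was most like that of 1810013L24Rik, Map3k1 and Mia3, with Pearson correlations of 0.997, 0.995 and 0.993 on the log2(FPKM + 1) scale over 6 libraries, among 10378 protein-coding genes compared. Map3k1, a kinase of the JNK pathway, was measured at 17.1, 5.32 and 19.3 FPKM in the WT-labelled libraries 1 to 3, and at 15.9, 11.2 and 9.84 FPKM in the KO-labelled libraries 1 to 3. As in Phf6, WT 2 was the lowest and WT 3 the highest library in all 3 genes, which their choice by likeness to Phf6 favours.

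All 10 genes passed the filter on low values (1 FPKM or more in 3 or more of the 6 libraries, met by 13393 genes). In KO-labelled libraries Hdac1 and Rbbp4 were higher, Chd3 was lower, and 7 genes did not pass the threshold of an adjusted p of 0.05. Over all genes tested, 26.4% passed it, 13.1% higher and 13.3% lower. Without WT 2 the count was 4 higher (Hdac1, Hdac2, Rbbp4 and Mbd3) and 1 lower (Chd3), where 52.0% of all genes passed, 26.8% higher and 25.3% lower. The median log2 fold change of the 10 genes was 0.46, compared with 0.086 for all genes tested, and 0.37 compared with 0.040 without WT 2. Groups did not overlap in 6 of the 10 genes, 5 higher and 1 lower, beside 49.1% of all genes tested (26.2% higher and 22.9% lower). Without WT 2 they did not overlap in 9, 7 higher and 2 lower, beside 72.1% of all genes (37.7% higher and 34.4% lower), and WT 2 was the lowest of the 6 libraries in 7 of the 10. The plot of FPKM by library shows these values.

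**Figure D1:**
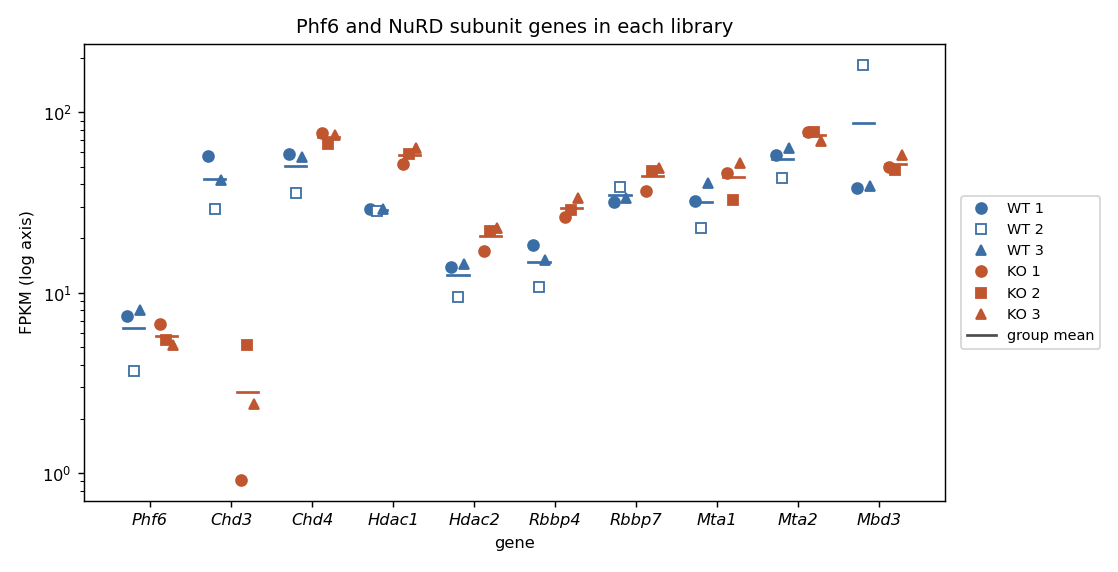
FPKM (log axis) of the 10 genes in each library, with WT-labelled libraries in blue, KO-labelled libraries in orange, WT 2 as open squares and group means as bars. Chd3 runs from 29.2 to 57.2 in the WT-labelled and from 0.916 to 5.10 in the KO-labelled libraries, and WT 2 lies far above the other libraries in Mbd3, at 183.5.

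The clearest difference was in the ATPases. Chd3 fell to a small part of its level in the WT-labelled libraries while its paralog Chd4, the main NuRD ATPase of blood cells, did not pass the test. Chd3 (ENSMUSG00000018474, on the minus strand of chromosome 11 from 69343273 to 69369406) read 57.2 FPKM in WT 1, 29.2 in WT 2 and 41.9 in WT 3, against 0.916 in KO 1, 5.10 in KO 2 and 2.42 in KO 3. The lowest WT-labelled library lay far above the highest KO-labelled one, and among the KO-labelled libraries KO 2 was the highest and KO 1 the lowest. Reads behind these values numbered 2894 to 7450 per WT-labelled and 144 to 678 per KO-labelled library. Mean FPKM was 42.7 ± 14.0 (SD, n = 3) in WT and 2.81 ± 2.12 (SD, n = 3) in KO, 15.2-fold higher in WT. The log2 fold change was -3.63 (SE 0.48, limma, adjusted p = 0.0028), and -3.87 without WT 2 (limma, adjusted p = 0.00159). Chd3 passed the threshold in each of the 18 alternatives, with adjusted p between 6.9e-05 and 0.0308.

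None of the 50-base stretches of the Chd3 transcripts occurred in another gene, those of Chd4 included. A small Cajal body RNA gene inside Chd3, Gm22442, reached at most 8.86 FPKM. Neutrophil and monocyte markers were lower beside it, and their part in the value of Chd3 was not tested. Summed FPKM of the neutrophil markers was 34133 in WT 1, 95626 in WT 2 and 6928 in WT 3. By log2 fold change Chd3 was the 349th from the lowest of the 13393 genes.

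Chd4 (ENSMUSG00000063870, on the plus strand of chromosome 6 from 125095981 to 125130591) was measured at 58.4, 35.5 and 56.4 FPKM in the WT-labelled libraries 1 to 3, and at 76.5, 66.5 and 74.7 FPKM in the KO-labelled libraries 1 to 3. All KO-labelled libraries lay above all WT-labelled ones, and WT 2 was the lowest. The means were 50.1 ± 12.7 (SD, n = 3) in WT and 72.6 ± 5.32 (SD, n = 3) in KO, with a log2 fold change of 0.56 (SE 0.29, limma, adjusted p = 0.212). It was 0.33 without WT 2 (limma, adjusted p = 0.0681, over all alternatives 0.0608 to 0.420), and Chd4 passed in none of the 18 alternatives. Among the genes most like Chd4 over the 6 libraries were Abl1 and Hcfc1, with Pearson correlations of 0.997 and 0.996, and both were lowest in WT 2 as well, which their choice by likeness favours.

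Chd5, an ATPase best known from neurons and testis, was under the filter at 0.115 to 0.471 FPKM (16 to 84 reads) and was not tested. As shares of the summed FPKM of the 3 ATPase genes, Chd3 held 49.4%, 45.0% and 42.5% in WT 1, WT 2 and WT 3, and 1.18%, 7.09% and 3.13% in KO 1, KO 2 and KO 3. Here WT 2 lay between the other WT-labelled libraries. The log2 ratio of Chd3 over Chd4, which is free of the scaling between libraries, was -0.25 ± 0.20 (SD, n = 3) in WT and -5.01 ± 1.34 (SD, n = 3) in KO. The difference of -4.76 (-4.78 without WT 2) had a p of 0.1 in an exact permutation test (two-sided, adjusted p = 0.175 over 7 pairs of paralogs), and 0.1 is the smallest p that 3 against 3 libraries allow. The summed FPKM of the ATPase genes overlapped between the groups, at 93.0 ± 25.9 (SD, n = 3) in WT and 75.7 ± 3.29 (SD, n = 3) in KO.

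**Figure D2:**
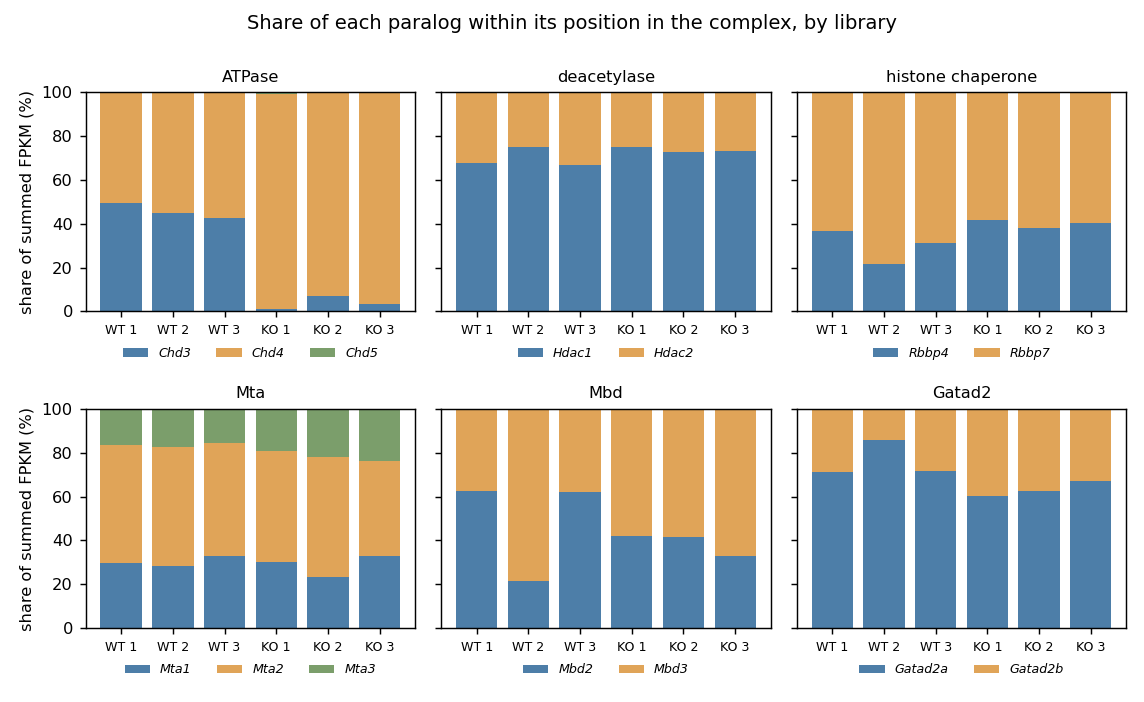
Share (%) of each paralog in the summed FPKM of the genes that fill the same position in NuRD, 1 panel per position and 1 bar per library. The ATPase panel goes from 42.5% to 49.4% Chd3 in the WT-labelled libraries to 1.18% to 7.09% in the KO-labelled ones, while the deacetylase panel stays between 66.8% and 75.1% Hdac1.

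Of the deacetylases, which remove acetyl groups from histone tails, Hdac1 rose and Hdac2 did not pass the test with all libraries. Hdac1 (ENSMUSG00000028800, on the minus strand of chromosome 4 from 129516104 to 129542713) read 29.1 FPKM in WT 1, 28.3 in WT 2 and 29.0 in WT 3, against 51.5 in KO 1, 59.0 in KO 2 and 63.3 in KO 3. The WT-labelled libraries lay within 1 FPKM of one another, WT 2 included, and all KO-labelled libraries were above them. Means of 28.8 ± 0.439 (SD, n = 3) in WT and 57.9 ± 5.95 (SD, n = 3) in KO differed 2.01-fold, with a log2 fold change of 0.98 (SE 0.22, limma, adjusted p = 0.0197). Without WT 2 it was 0.97 (limma, adjusted p = 0.00243). Leaving out any other library kept the size, at 0.91 to 1.06, but not the call, with adjusted p of 0.0639 without WT 1, 0.0530 without WT 3, and 0.0599, 0.0989 and 0.0998 without KO 1, KO 2 and KO 3. Relative to the median of all genes the rise lay between 0.83 and 1.19 over the 18 alternatives.

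Of the 50-base stretches of Hdac1 transcripts 35.5% also occurred in other genes, mainly in Gm10093, which the table lists at 1.71 to 3.80 FPKM in the WT-labelled and 7.66 to 9.50 FPKM in the KO-labelled libraries. How the counting shared reads between Hdac1 and Gm10093 is not given in the sources used here, and the level of Hdac1 is uncertain to that extent.

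Hdac2 (ENSMUSG00000019777, on the plus strand of chromosome 10 from 36974544 to 37001889) was measured at 13.8, 9.47 and 14.4 FPKM in the WT-labelled libraries 1 to 3, and at 17.0, 21.9 and 22.8 FPKM in the KO-labelled libraries 1 to 3. The groups did not overlap, and the highest WT-labelled library came close to KO 1. This gave a log2 fold change of 0.68 (SE 0.26, limma, adjusted p = 0.109), and 0.50 without WT 2 (limma, adjusted p = 0.0431, over all alternatives 0.00671 to 0.313). The log2 ratio of Hdac2 over Hdac1 was -1.22 ± 0.31 (SD, n = 3) in WT and -1.50 ± 0.088 (SD, n = 3) in KO, with an overlap of the groups (exact permutation p = 0.3, adjusted p = 0.42) and a difference of -0.28, or -0.46 without WT 2. Summed over both genes, FPKM was 41.4 ± 3.13 (SD, n = 3) in WT and 78.5 ± 9.02 (SD, n = 3) in KO, with no overlap.

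Of the histone chaperones, Rbbp4 rose and Rbbp7 did not pass the test. Rbbp4 and Rbbp7 are WD-repeat proteins that hold histones H3 and H4 for several complexes, and Rbbp4 carries a surface that binds Phf6. Rbbp4 (ENSMUSG00000057236, on the minus strand of chromosome 4 from 129307100 to 129335370) read 18.4 FPKM in WT 1, 10.7 in WT 2 and 15.3 in WT 3, against 26.4 in KO 1, 28.9 in KO 2 and 33.5 in KO 3. WT 2 was the lowest, and the groups did not overlap. Means were 14.8 ± 3.87 (SD, n = 3) in WT and 29.6 ± 3.58 (SD, n = 3) in KO, with a log2 fold change of 0.98 (SE 0.27, limma, adjusted p = 0.0402). Without WT 2 it was 0.78 (limma, adjusted p = 0.00873). The call was lost without WT 1 (adjusted p = 0.0503), WT 3 (0.0790), KO 1 (0.103), KO 2 (0.139) or KO 3 (0.159), in 9 of the 18 alternatives in all, with log2 values of 0.89 to 1.14 without one of these libraries.

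A gene on the other strand, the noncoding Gm26722, overlaps Rbbp4 over 9363 bases and was listed at no more than 2.22 FPKM, and the use of strand in the counting is not given in the sources used here. The protein-coding Sync, also on the other strand, overlaps it over 1460 bases and reached at most 0.11 FPKM. Of the 50-base stretches of Rbbp4 transcripts 17.2% also occurred in other genes, mainly in Gm26722 and Sync. The level of Rbbp4 is uncertain to that extent. Between the groups Hdac1 and Rbbp4 rose beside genes of the cell cycle. Of 20 such genes 7 were higher and none lower (17 higher and none lower without WT 2). Their summed FPKM was 349 in WT 1, 505 in WT 2 and 226 in WT 3, and 616 to 954 in the KO-labelled libraries. WT 2 had the highest sum of the WT-labelled libraries, and its FPKM over all genes also summed highest, at 897352 beside 244936 to 329893. The part of the cell cycle genes in the values of Hdac1 and Rbbp4 was not tested.

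Rbbp7 (ENSMUSG00000031353, on the plus strand of chromosome X from 162760402 to 162779092) was measured at 31.9, 38.7 and 33.6 FPKM in the WT-labelled libraries 1 to 3, and at 36.8, 47.1 and 49.4 FPKM in the KO-labelled libraries 1 to 3. It is the only gene of the set besides Mbd3 in which WT 2 was the highest WT-labelled library, and there it lay above KO 1. On the log2 scale the difference was 0.34 (SE 0.24, limma, adjusted p = 0.354), and 0.42 without WT 2 (limma, adjusted p = 0.0738, over all alternatives 0.0139 to 0.642). The log2 ratio of Rbbp7 over Rbbp4 was 1.26 ± 0.54 (SD, n = 3) in WT and 0.58 ± 0.11 (SD, n = 3) in KO, with no overlap (exact permutation p = 0.1, adjusted p = 0.175). The difference of -0.68 was -0.38 without WT 2. In summed FPKM the pair was at 49.5 ± 0.721 (SD, n = 3) in WT and 74.0 ± 9.98 (SD, n = 3) in KO, with no overlap. Of the 50-base stretches of Rbbp7 transcripts 11.2% also occurred in other genes, Gm6382 and Txlng.

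The RefSeq promoter table for GRCm38.p6 matched 7 of the 10 genes, all but Phf6, Chd3 and Hdac1. The 250 bases before the start of Rbbp4, the only matched gene that passed the test, are shown beside those of its paralog Rbbp7, which did not pass. Capitals mark CCAAT and the GC box GGGCGG on either strand, where the other strand reads ATTGG and CCGCCC. The Rbbp4 window is chr4:129335371-129335620, minus strand, with 67.6% G and C, and the Rbbp7 window is chrX:162760122-162760371, plus strand, with 76.4%.

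Rbbp4: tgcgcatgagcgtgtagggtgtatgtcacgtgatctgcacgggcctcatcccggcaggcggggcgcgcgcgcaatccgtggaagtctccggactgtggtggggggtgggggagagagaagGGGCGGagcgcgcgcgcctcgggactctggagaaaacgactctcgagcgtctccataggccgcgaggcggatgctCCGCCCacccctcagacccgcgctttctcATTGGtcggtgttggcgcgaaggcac

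Rbbp7: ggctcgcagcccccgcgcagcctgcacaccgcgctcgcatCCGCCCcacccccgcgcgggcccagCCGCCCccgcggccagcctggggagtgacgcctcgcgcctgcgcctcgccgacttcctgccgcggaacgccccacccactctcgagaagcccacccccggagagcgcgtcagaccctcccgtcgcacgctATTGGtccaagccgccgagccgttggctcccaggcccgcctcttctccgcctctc

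Both windows are rich in CpG, with 30 in Rbbp4 and 34 in Rbbp7 beside a median of 6 over all windows. GGGCGG occurred in all 7 matched genes, where 32.7% of 32851 windows and 56.6% of the 10954 windows of tested genes hold it. CCAAT occurred in Chd4, Mbd3, Rbbp4 and Rbbp7, where 33.8% of all windows hold it. The 8-letter E2F motifs TTTGGCGC, TTTCGCGC and TTTCCCGC, held by 0.417%, 0.256% and 0.895% of all windows, had no match in the 7 genes. Only exact matches were counted. Motifs this rare are seldom met in 7 genes, so the lack of a match says nothing about E2F sites in them. The gene that rose and the paralog that did not pass thus both hold the GC box and CCAAT.

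The Mta proteins form the scaffold on which the deacetylase is bound. Neither Mta1 nor Mta2 passed the test, and their paralog Mta3 rose. Mta1 (ENSMUSG00000021144, on the plus strand of chromosome 12 from 113098278 to 113137206) read 32.4 FPKM in WT 1, 22.7 in WT 2 and 40.4 in WT 3, against 46.2 in KO 1, 32.6 in KO 2 and 52.1 in KO 3. KO 2 lay below WT 3 and the groups overlapped, also without WT 2, as in no other gene of the set. The fitted log2 difference was 0.45 (SE 0.32, limma, adjusted p = 0.350), and 0.24 without WT 2 (limma, adjusted p = 0.418, over all alternatives 0.170 to 0.653).

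Mta2 (ENSMUSG00000071646, on the plus strand of chromosome 19 from 8941875 to 8952303) was measured at 58.1, 43.2 and 63.6 FPKM in the WT-labelled libraries 1 to 3, and at 77.7, 77.8 and 69.6 FPKM in the KO-labelled libraries 1 to 3. WT 2 was the lowest, and KO 3 was the KO-labelled library nearest to the WT-labelled ones, without overlap. The log2 fold change was 0.46 (SE 0.26, limma, adjusted p = 0.255), and 0.30 without WT 2 (limma, adjusted p = 0.0934, over all alternatives 0.0277 to 0.493).

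Mta3 (ENSMUSG00000055817), which is no member of the set but fills the same position, read 17.9 FPKM in WT 1, 13.9 in WT 2 and 18.7 in WT 3, against 29.5 in KO 1, 30.7 in KO 2 and 37.8 in KO 3. The groups did not overlap. This gave a log2 fold change of 0.92 (SE 0.24, limma, adjusted p = 0.0328), and 0.79 without WT 2 (limma, adjusted p = 0.00691). As with Hdac1 and Rbbp4, the call was lost on leaving out any other library, with adjusted p of 0.0559 to 0.144. Over Mta2, Mta3 had a log2 ratio of -1.70 ± 0.062 (SD, n = 3) in WT and -1.21 ± 0.28 (SD, n = 3) in KO, with no overlap (exact permutation p = 0.1, adjusted p = 0.175) and a difference of 0.49, or 0.52 without WT 2. Mta1 over Mta2 had the same mean log2 ratio of -0.81 in both groups, with an SD of 0.14 in WT and 0.42 in KO (exact permutation p = 1), and differed by -0.059 without WT 2. Mta2 held the largest share of the 3 Mta genes in every library, at 43.6% to 55.2%.

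Mbd3 is the gene of the set on which WT 2 bore most. Unlike Mbd2, Mbd3 of mammals binds methylated CpG weakly, and each of them defines its own form of NuRD. Mbd3 (ENSMUSG00000035478, on the minus strand of chromosome 10 from 80392539 to 80399550) was measured at 37.8, 183.5 and 38.9 FPKM in the WT-labelled libraries 1 to 3, and at 49.6, 47.9 and 58.0 FPKM in the KO-labelled libraries 1 to 3. WT 2 was the highest of all libraries and the other WT-labelled libraries were the lowest, below all KO-labelled ones. On the log2 scale the difference was -0.32 (SE 0.63, limma, adjusted p = 0.749), and turned to 0.42 without WT 2 (limma, adjusted p = 0.0415, over all alternatives 0.0415 to 0.948). Its gene model of 1987 bases is the shortest of the 10, which run up to 8744 bases, and WT 2 is the library with the most reads in short genes. With the trend on gene length removed within each library, the log2 fold change was -0.051 (limma, adjusted p = 0.948). The part of gene length or of cell types in the value of Mbd3 in WT 2 was not tested.

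Mbd2 (ENSMUSG00000024513), read as a partner of Mbd3, read 63.4 FPKM in WT 1, 49.5 in WT 2 and 64.2 in WT 3, against 35.7 in KO 1, 34.1 in KO 2 and 28.4 in KO 3. All KO-labelled libraries lay below all WT-labelled ones. The fitted log2 difference was -0.83 (SE 0.24, limma, adjusted p = 0.0489), and -0.95 without WT 2 (limma, adjusted p = 0.00309). This call stood near the threshold and was lost in 12 of the 18 alternatives, with a log2 fold change of -0.010 on rescaling to TPM and adjusted p of 0.118 or more on leaving out any library but WT 2. On rescaling to TPM the median of all genes tested was 0.86. The log2 ratio of Mbd2 over Mbd3 overlapped between the groups (exact permutation p = 0.6, adjusted p = 0.7), and the difference of -0.52 became -1.40 without WT 2. In shares, Mbd3 held 37.4% and 37.8% of the pair in WT 1 and WT 3, 78.8% in WT 2, and 58.1%, 58.4% and 67.1% in KO 1, KO 2 and KO 3.

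Of the Gatad2 proteins, Gatad2a had a log2 difference of -0.40 (adjusted p of 0.270 by limma) and of -0.50 without WT 2 (limma, adjusted p = 0.0373, over all alternatives 0.0142 to 0.989), with the sign turned to 0.41 on rescaling to TPM, where the median of all genes tested was 0.86. Its FPKM of 23.3 to 30.7 in the WT-labelled libraries lay just above the 17.5 to 23.1 of the KO-labelled ones. Gatad2b, at 3.89 in WT 2 and 10.4 to 13.7 in the other libraries, had a log2 difference of 0.47 (adjusted p of 0.462 by limma), and 0.016 without WT 2. Their log2 ratio, Gatad2b over Gatad2a, was 0.96 higher in KO (exact permutation p = 0.1, adjusted p = 0.175) and 0.54 higher without WT 2.

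**Figure D3:**
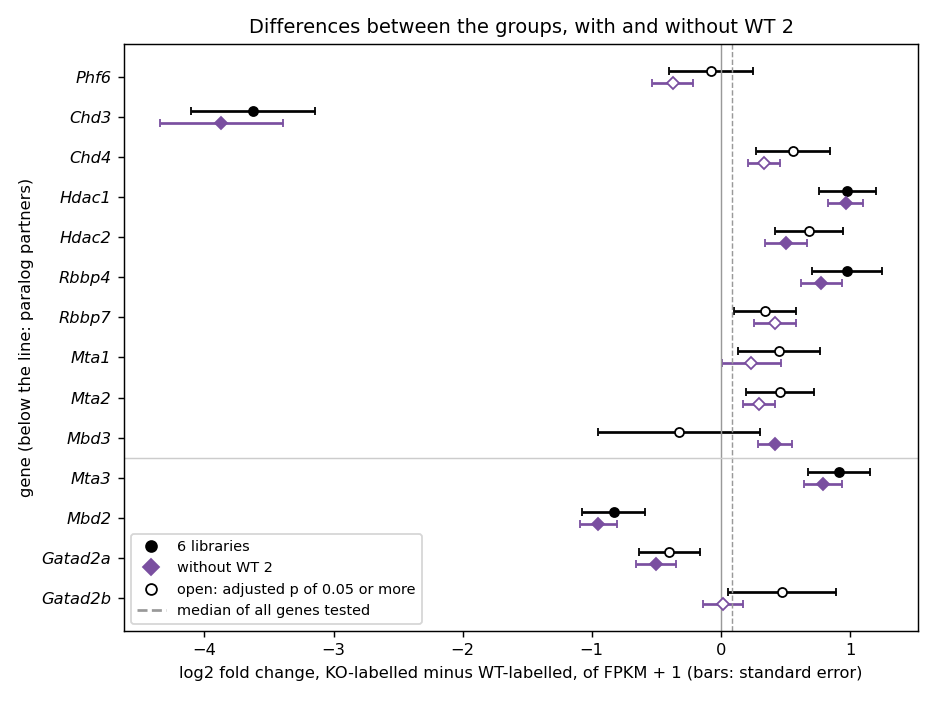
Log2 fold change of FPKM + 1 (KO-labelled minus WT-labelled, bars are standard errors) from all 6 libraries (black circles) and without WT 2 (purple diamonds), filled where the adjusted p is under 0.05, for the 10 genes and, below the line, 4 partners. Chd3 stands at -3.63 and -3.87, Hdac1 and Rbbp4 at 0.98 with all libraries, and Mbd3 moves from -0.32 to 0.42 when WT 2 is left out.

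Within a group, levels per length can be ordered. In the KO-labelled libraries the order by mean FPKM was Mta2 (75.0), Chd4 (72.6), Hdac1 (57.9), Mbd3 (51.8), Rbbp7 (44.4), Mta1 (43.6), Rbbp4 (29.6), Hdac2 (20.6), Phf6 (5.78) and Chd3 (2.81). Neighbours in this order overlapped in their ranges except Chd4 and Hdac1, Rbbp4 and Hdac2, Hdac2 and Phf6, and Phf6 and Chd3. In the WT-labelled libraries Mbd3 came first only through WT 2 (mean 86.8, or 38.4 without it), followed by Mta2 (55.0), Chd4 (50.1) and Chd3 (42.7), and Phf6 was last (6.39). There the ranges of neighbours overlapped except for Hdac1 and Rbbp4, and for Hdac2 and Phf6. By mean FPKM Chd3 thus went from a place among the highest 4 of the set to the last, below Phf6. Their ranges in the KO-labelled libraries only just missed each other, with Phf6 at 5.106 in KO 3 and Chd3 at 5.100 in KO 2.

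Of 5 further NuRD subunit genes tested (Mta3, Mbd2, Gatad2a, Gatad2b and Cdk2ap1) 1 rose and 1 fell, with a median log2 fold change of 0.14, and without WT 2 the count was 1 higher and 2 lower with a median of 0.016. The complexes that share subunits with the set, and factors that recruit it, were counted from the same fit. In the Sin3 complex, which also holds Hdac1, Hdac2, Rbbp4 and Rbbp7, 1 of 12 genes tested rose and none fell, with a median log2 fold change of 0.10 (3 higher, 1 lower and a median of 0.035 without WT 2). The gene was Brms1l, a Sin3 subunit, at 3.34 ± 0.970 (SD, n = 3) FPKM in WT and 8.34 ± 1.02 (SD, n = 3) in KO (log2 fold change 1.13, limma, adjusted p = 0.0244). It did not pass on rescaling to TPM (limma, adjusted p = 0.0525) or with a replicate block (0.0847), nor without KO 1 (0.0770), KO 2 (0.117) or KO 3 (0.0987). In CoREST, another Hdac1 and Hdac2 complex, 1 of 7 rose and none fell, with a median of 0.46 (4 higher, 1 lower and a median of 0.38 without WT 2). This was Rcor2, a CoREST scaffold protein, at 0.767 ± 0.797 (SD, n = 3) in WT and 5.85 ± 0.609 (SD, n = 3) in KO (log2 fold change 2.04, limma, adjusted p = 0.00651).

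Polycomb repressive complex 2 (PRC2) and chromatin assembly factor 1 (CAF-1) both use Rbbp4. Of their 6 genes 1 rose and none fell, with a median of 1.02. Chaf1a, the large CAF-1 subunit that places histones behind the replication fork, was at 1.42 ± 0.619 (SD, n = 3) FPKM in WT and 6.07 ± 1.31 (SD, n = 3) in KO (log2 fold change 1.56, limma, adjusted p = 0.00872). Without WT 2 the count was 4 higher and 1 lower, with a median of 1.12. Of 5 other deacetylase genes tested none rose and 1 fell, with a median of 0.22 (1 higher, 1 lower and a median of 0.30 without WT 2). Hdac5, a class IIa deacetylase, was at 11.8 ± 8.67 (SD, n = 3) in WT and 0.675 ± 0.910 (SD, n = 3) in KO (log2 fold change -2.86, limma, adjusted p = 0.0118), and did not pass without KO 2 (adjusted p = 0.0577) or KO 3 (0.0568).

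Of 7 genes of the PAF1 elongation complex and Ubtf, which have been tied to PHF6, 1 rose and none fell, with a median of 0.18 (3 higher, 1 lower and a median of 0.24 without WT 2). Wdr61, a PAF1 subunit, had a log2 difference of 0.78 (adjusted p of 0.0472 by limma) that passed in only 8 of 18 alternatives, and not when any library other than WT 2 was left out, with adjusted p of 0.102 to 0.205. Of 15 genes of the PHD finger family none rose and 2 fell, with a median of 0.48. Without WT 2 the count was 3 higher and 3 lower, and the median dropped to 0.043. Phf1, a PRC2 accessory protein, went from 65.1 ± 5.68 (SD, n = 3) FPKM in WT to 8.55 ± 0.643 (SD, n = 3) in KO (log2 fold change -2.79, limma, adjusted p = 0.000445), and Phf11a had a log2 difference of -2.46 (adjusted p of 0.00253 by limma).

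Among 9 tested factors that recruit NuRD, 2 rose and 2 fell, with a median of 0.14 (also 2 and 2, with a median of 0.053, without WT 2). Ikzf2, the Ikaros family member Helios, was at 0.926 ± 0.762 (SD, n = 3) FPKM in WT and 10.9 ± 1.85 (SD, n = 3) in KO (log2 fold change 2.70, limma, adjusted p = 0.00271). Bcl11b, a factor of T lineage commitment that is also on the T cell marker list, had a log2 difference of 1.48 (adjusted p of 0.0191 by limma), which did not pass without KO 1 (adjusted p = 0.0822), KO 2 (0.0698) or KO 3 (0.0779). Zbtb7b, known for CD4 lineage choice, had a mean of 9.56 ± 3.93 (SD, n = 3) in WT and 0.121 ± 0.030 (SD, n = 3) in KO (log2 fold change -3.17, limma, adjusted p = 0.000958), and its relative Zbtb7a had a log2 difference of -1.36 (adjusted p of 0.00694 by limma), which became -0.62 on rescaling to TPM (adjusted p = 0.393) and did not pass in voom either (adjusted p = 0.0695).

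Of 14 genes of the SWI/SNF and ISWI families and related Chd remodelers, 2 rose and 3 fell, with a median of 0.34. Without WT 2 the count was 3 higher and 4 lower, with a median of 0.14. Smarca2, an ATPase of SWI/SNF, was at 9.16 ± 5.54 (SD, n = 3) FPKM in WT and 0.323 ± 0.027 (SD, n = 3) in KO (log2 fold change -2.73, limma, adjusted p = 0.00948). Chd7, a remodeler of another Chd subfamily than Chd3, had a log2 difference of -3.45 (adjusted p of 0.00276 by limma), and Smarcc1, a SWI/SNF core subunit, one of 1.62 (limma, adjusted p = 0.00843). Arid1b, a DNA-binding SWI/SNF subunit, fell, with a log2 difference of -1.64 (adjusted p of 0.0117 by limma), which did not pass on rescaling to TPM (log2 difference -1.33, adjusted p = 0.185), nor without KO 2 (adjusted p = 0.0634) or KO 3 (0.0616). The fifth gene past the threshold, singled out after its values were seen as the paralog of Smarca2, was Smarca4, at a log2 difference of 1.07 (adjusted p of 0.0404 by limma, passing in 9 of 18 alternatives). Over the 9 lists 18 of 80 genes tested passed (22.5%, 9 higher and 9 lower), beside 26.4% of all genes. Without WT 2, 40 of the 80 passed (50%, 24 higher and 16 lower), beside 52.0% of all genes. The plot of the lists sets these values beside those of the NuRD genes.

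**Figure D4:**
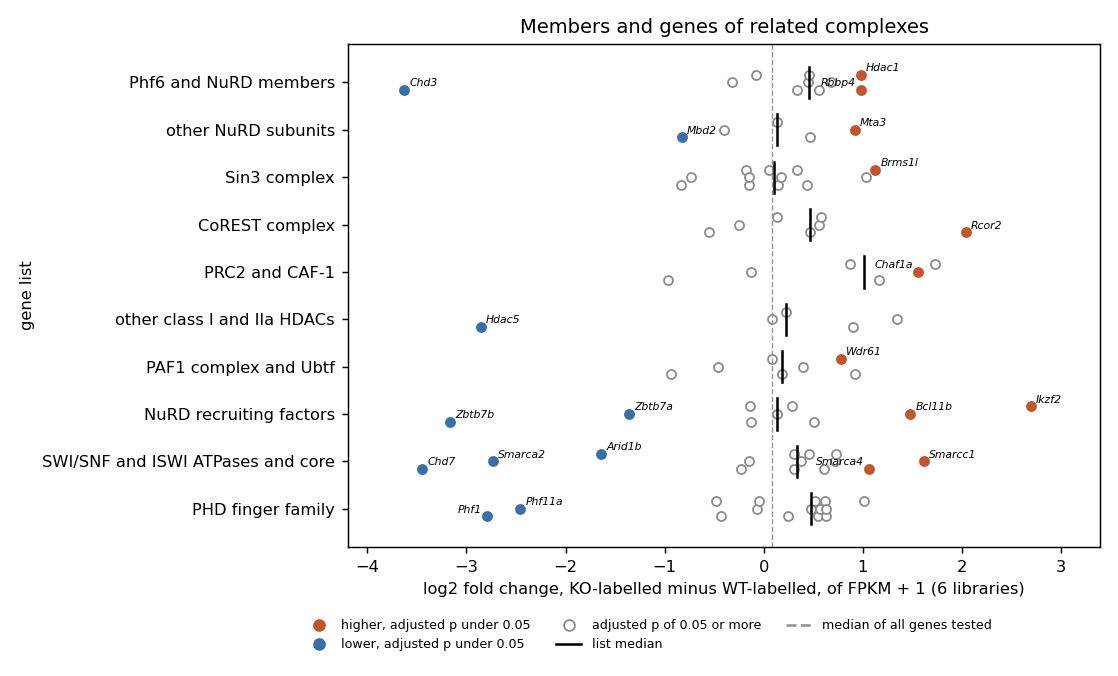
Log2 fold change of FPKM + 1 (KO-labelled minus WT-labelled, 6 libraries) of each gene tested in the set and in 9 lists of related complexes, filled and named where the adjusted p is under 0.05, with the median of each list as a black bar and that of all genes tested (0.086) as a dashed line. Chd3, at -3.63, is the lowest value in the plot, ahead of Chd7 at -3.45, and Ikzf2, at 2.70, is the highest. The place of Chd3 depends on the setting. With a pseudocount of 0.1 in place of 1, Zbtb7b (-5.38), Phf11a (-5.34), Chd7 (-4.41), Hdac5 (-4.40) and Smarca2 (-4.19) lay below Chd3 (-4.12). Without KO 1, Chd7 (-3.73) and Hdac5 (-3.27) lay below Chd3 (-3.21), and with array weights Chd7 (-4.08) lay below Chd3 (-3.83).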

How the data were processed

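RNA of BM cells from 6 libraries (3 with the label Phf6 WT and 3 with Phf6 KO) was analysed from the deposited table of FPKM per gene, a unit that the authors computed by gene length and a library size. The submitters' processing notes name HISAT2 2.0.5 and featureCounts 1.5.0-p3, with no role or order, and the builds GRCm38 and mm10. The annotation release, the use of strand and the way FPKM was scaled are not given in the sources used here. Coordinates of 53462 of 54532 genes were identical to GENCODE on GRCm38. Every deposited FPKM above 0 was, within a tolerance of 0.01, a whole number of fragments once multiplied by gene length and 1 factor per library, which gave 13015823 to 18235095 fragments per library. The library size that the authors divided by was 0.645 to 1.21 times this total, so a scaling factor is part of the FPKM. A gene without reads could still have had up to 0.161 to 0.255 RPM (3 reads), for counting error only.

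A gene was tested where 3 or more of the 6 libraries reached 1 FPKM (13393 genes). Values of log2(FPKM + 1), on which differences of low genes come out too small, were compared by limma 3.58.1 (lmFit, eBayes with trend, two-sided) in R 4.3.3, with Benjamini-Hochberg adjustment over all genes tested and a threshold of 0.05. The study itself used a count model. Here the deposited unit is FPKM, so the test on the log scale was the main one, and the recovered fragments entered voom as an alternative. Ratios of paralogs were compared by exact permutation tests over libraries, two-sided. Within each group, no pair of libraries agreed within sampling noise. Replicate numbers did not pair the libraries: deviations of same-numbered libraries correlated at -0.15 to 0.10.

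The 10 genes and the lists were chosen with earlier results of these data known. Named are all 10 genes, their paralog partners, up to 4 genes per list that passed with the smallest p, and the 3 protein-coding genes most like Phf6 and Chd4. Of these, 1 item is not reported here. Gm10093, Gm22442, Gm26722, Sync, Gm6382, Txlng and Smarca4 were added after their values were seen, and Cd3e as a defining marker. Sequence stretches of 50 bases were compared over the reference transcripts, and promoter windows were the 250 bases before each start in RefSeq, without those on chromosome 18. Alternatives were other pseudocounts (0.1 and 0.5), filters, scalings, removal of a length trend, eBayes without trend, array weights, voom on the recovered fragments, a replicate block and leaving out each library. No deposited sample column was left unused. Tables were read with Python 3.11.15, NumPy 2.4.6, pandas 2.3.3 and, in R, version 1.17.8 of data.table; permutation tests used SciPy 1.17.1, and plots used Matplotlib 3.10.9.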

Additional observations from a re-analysis of the deposited data

How the results depend on the processing

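Chd3 kept its direction and its call in each of the 18 alternatives, Hdac1 kept its direction in all and its call in 12, and Rbbp4 its call in 9. The count of the 10 genes called was 6 (5 higher) with array weights, 1 (0 higher) with a replicate block, and 1 to 5 (0 to 4 higher) when 1 library was left out; 1 gene was higher with no filter on low values, on rescaling to TPM and in voom. Array weights gave WT 2 a weight of 0.0509 and the other libraries 0.744 to 4.88. Genes called numbered 3539, with 1837 (786 higher and 1051 lower) at a mean FPKM of at least 5, 8461 (4388 and 4073) with array weights, 2676 with the replicate block, and 1934 to 6967 (938 to 3584 higher and 996 to 3383 lower) without 1 library, the highest being without WT 2. Rescaling to TPM left 1081 lower and moved the median of all genes to 0.86, and voom moved it to 0.56, with 67.8% and 60.2% of the calls higher compared with 49.6%. Listed genes called numbered 18 (9 higher and 9 lower), with 9 (5 and 4) at a mean FPKM of at least 5, 43 (27 and 16) with array weights, 14 higher in voom, 5 higher with the block, and 10 to 40 (4 to 24 higher and 6 to 16 lower) without 1 library. The sign of Mbd3 turned to 0.51 on rescaling to TPM, 0.24 on quantile normalization, 0.40 with array weights, 0.10 in voom and 0.42 without WT 2 (range without 1 library -0.71 to 0.42), and that of Phf6 to 0.69 on rescaling to TPM, 0.34 in voom, and 0.055 and 0.10 without WT 1 and WT 3 (range without 1 library -0.37 to 0.10). Gatad2a turned to 0.41 on rescaling to TPM, below the median of all genes there. Relative to the median of all genes, Mbd3 lay at -0.34 on rescaling to TPM and -0.46 in voom, beside -0.41 in the main fit. Phf6 lay at -0.17 and -0.22, beside -0.16, so relative to that median neither gene turned in these 2 settings. The log2 ratio of Mta1 over Mta2, which differed between the groups by 0.00015, became -0.0054 with FPKM + 1 and lay between -0.20 and 0.22 without 1 library. Same-numbered libraries shared only a number: 2 of 6 correlated best with their own number, and under the replicate block Hdac1 and Rbbp4 had adjusted p of 0.0877 and 0.101 (limma). The cause of these moves was not tested. With 3 libraries per group, 1 of them apart, differences near 1 on the log2 scale stand close to the threshold.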
